A study of Mus musculus with 18 samples.

Results

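The numbered Gpr genes are the mouse genes whose symbol is Gpr followed by a number and at most 1 letter. Most encode G protein-coupled receptors (GPCRs) that were found by sequence before their ligand was known. Among 30975 gene symbols with an Entrez gene ID in the deposited tables, 97 have such a symbol. Of these, 7 are in the study's own list of Gi-coupled receptors of fat (Gpr20, Gpr30, Gpr34, Gpr44, Gpr81, Gpr84 and Gpr183), and the other 90 are not. The measurements come from 18 RNA-seq libraries of wild-type male C57BL/6 mice (the protocol text of the labels names C57BL/6J and the study C57BL/6NTac) that were 16 weeks old and had spent 12 weeks on a high-fat diet (HFD). There were 6 libraries of adipocytes from inguinal white adipose tissue (iWAT), 6 of adipocytes from epididymal white adipose tissue (eWAT) and 6 of brown adipose tissue (BAT). The white adipocytes were the floating cells of a collagenase digest, whereas BAT was frozen as whole tissue although a label field calls it adipocytes. Another label field gives regular chow for all 18 samples, against their titles and the design text, and they were taken as HFD samples. A sample is named here by its tissue and the number in its title.

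A GPCR passes a signal from outside the cell to a G protein on the inner face of the membrane. In fat, receptors that act through Gs raise cyclic AMP and promote lipolysis, and receptors that act through Gi lower it. Several numbered receptors have since been paired with protons, fatty acids, lactate, lysophospholipids or oxysterols, and others are adhesion GPCRs, which carry a long extracellular part that binds matrix proteins or other cells. A few symbols of the series were given to proteins that sit in the membranes of the Golgi apparatus or lysosome, or that carry a vitamin. The current RefSeq annotation matched all 97 genes by gene ID and gives 25 of them another symbol. For example, Gpr120 is now Ffar4, Gpr77 is C5ar2, Gpr116 is Adgrf5 and Gpr144 is a pseudogene, Adgrd2-ps.

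The libraries held 26768529 to 30166441 reads on annotated rows in iWAT, 24655056 to 37438994 in eWAT and 27402247 to 42518483 in BAT. Levels are given in RPKM, reads scaled to transcript length and library total, as mean ± SD over n = 6 samples. Fold changes come from edgeR's quasi-likelihood test on read counts with TMM scaling, with p-values adjusted by Benjamini-Hochberg over all genes tested, and a gene was called at an adjusted p under 0.05. The labels do not say whether equal numbers mark 1 mouse, and the p-values measure the spread between these samples. All white adipocyte libraries ran on lanes 1 and 2 and all BAT libraries on lanes 3 and 4, so tissue, preparation and lane cannot be told apart for BAT. In such bulk samples, fewer cells of a type and less RNA per cell cannot be told apart either.

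Markers of other cell types were present in the libraries labelled as adipocytes. The 6 macrophage markers (Cd68, Emr1, Csf1r, Lyz2, Itgam and Mrc1) summed to 445 to 875 RPKM in iWAT, 2502 to 4050 in eWAT and 24.6 to 49.4 in BAT. All 6 were called higher in eWAT than in iWAT, and none was at or below 3 reads in any tissue. The 4 endothelial markers (Cdh5, Pecam1, Tek and Kdr) summed to 99.5 to 280 RPKM in iWAT, 33.4 to 71.2 in eWAT and 68.7 to 99.6 in BAT, and with the test described above all 4 were called lower in eWAT than in either other tissue. Without scaling beyond the library total, 2 of the 4 were called lower in eWAT than in BAT. The 4 adipocyte markers (Adipoq, Plin1, Lep and Cidec) summed to 2605 to 3840 RPKM in iWAT, 517 to 1812 in eWAT and 629 to 824 in BAT. Ucp1, the uncoupling protein of brown fat, averaged 1858 RPKM in BAT, and the 3 brown markers summed to at most 11.6 RPKM in iWAT and 2.95 RPKM in eWAT. Lymphocyte markers summed to at most 1.85 RPKM, and mesothelial markers to at most 2.29 RPKM, in any library. Mural markers summed to 62.3 to 206 RPKM in iWAT, 16.3 to 44.5 in eWAT and 85.6 to 120 in BAT. Fibroblast markers summed to 33.4 to 68.5, 35.1 to 56.8 and 11.8 to 19.4 RPKM in the same order. With TMM, Col1a1 was called lower in BAT than in both white depots, Dcn was called in no comparison, and Pdgfra was called higher in BAT than in iWAT (-0.92). Without scaling, 2 of these 3 markers were called higher in iWAT than in BAT and 0 lower. Schwann cell markers summed to 5.88 to 16.4, 0.452 to 0.956 and 50.8 to 67.1 RPKM. Skeletal muscle markers reached 15.9, 4.83 and 91.1 RPKM.

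About 1 in 3 of the numbered Gpr genes had a mean of at least 1 RPKM in the white adipocyte libraries, and fewer did in BAT. At this level were 32 of 97 (33.0%) in iWAT, 30 (30.9%) in eWAT and 18 (18.6%) in BAT, beside 39.6%, 39.1% and 34.8% of all gene symbols. After TMM scaling the count for BAT was 23. In all, 38 genes reached this level in some tissue and 16 reached it in every tissue. Of the 38, 18 had their highest mean RPKM in eWAT, 15 in iWAT and 5 in BAT. At the other end, 23 genes had at most 3 reads in every sample of every tissue. They include Gpr6, Gpr12, Gpr15, Gpr22, Gpr25, Gpr26, Gpr37, Gpr45, Gpr61, Gpr101, Gpr112, Gpr119, Gpr123, Gpr128, Gpr139, Gpr142, Gpr143, Gpr144, Gpr149, Gpr158 and Gpr165. No read at all was counted for 9 of them, among which Gpr119, a receptor for oleoylethanolamide, and Gpr6 and Gpr12, receptors that signal through Gs without a ligand. A count of 0 in a library of this size allows up to 3 reads, so these genes were not detectable at this depth.

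**Figure D1:**
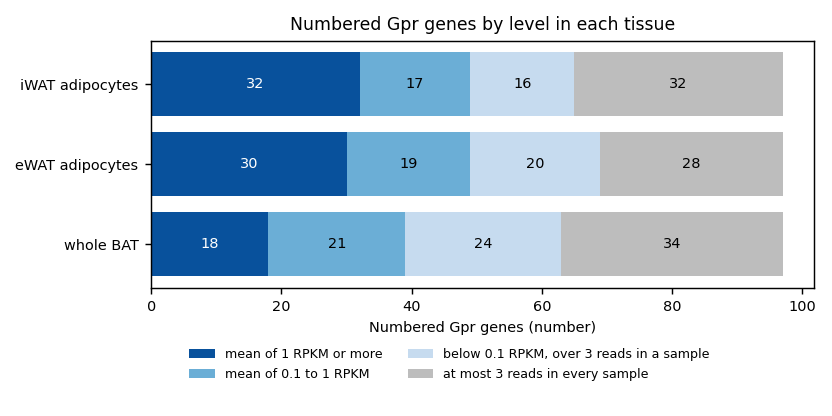
Number of numbered Gpr genes in each tissue by mean RPKM over 6 samples, with genes of at most 3 reads in every sample as a class of their own. The dark part is 32 genes in iWAT, 30 in eWAT and 18 in BAT, and the grey part is 32, 28 and 34.

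The most abundant members were not the same in the 3 tissues. Gpr116, an adhesion GPCR known from lung and endothelium (chr17:43526415-43596506, + strand, NCBIM37), had the highest mean in iWAT (42.7 ± 17.5 RPKM) and BAT (27.9 ± 2.76 RPKM). In eWAT the highest mean was that of Gpr137b, a lysosomal protein that binds Rag GTPases, at 26.3 ± 5.98 RPKM. Its row is uncertain, because a near copy, Gpr137b-ps, stood at 47.7 ± 8.99 RPKM in eWAT, 10.8 ± 2.24 RPKM in iWAT and 1.44 ± 0.205 RPKM in BAT. Next in eWAT came the proton-sensing receptor Gpr65 (17 ± 2.96 RPKM), then Gpr116 (12.5 ± 3.51 RPKM), Gpr132 (10.1 ± 1.40 RPKM) and Gpr56 (10.1 ± 2.50 RPKM), whose ranges over samples overlapped one another. Gpr56, an adhesion GPCR that binds collagen III, was second in iWAT at 26.2 ± 10.9 RPKM and in BAT at 10.2 ± 2.49 RPKM. Its iWAT range of 14.4 to 40.3 RPKM overlapped that of Gpr116 above it (24.7 to 68.5 RPKM) and that of Gpr81, the lactate receptor, below it (12.1 to 20.4 RPKM). In BAT the next means were those of Gpr120, a receptor for long-chain fatty acids, at 9.30 ± 5.73 RPKM, and of the lysosomal protein Gpr137 at 8.55 ± 1.03 RPKM.

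**Figure D2:**
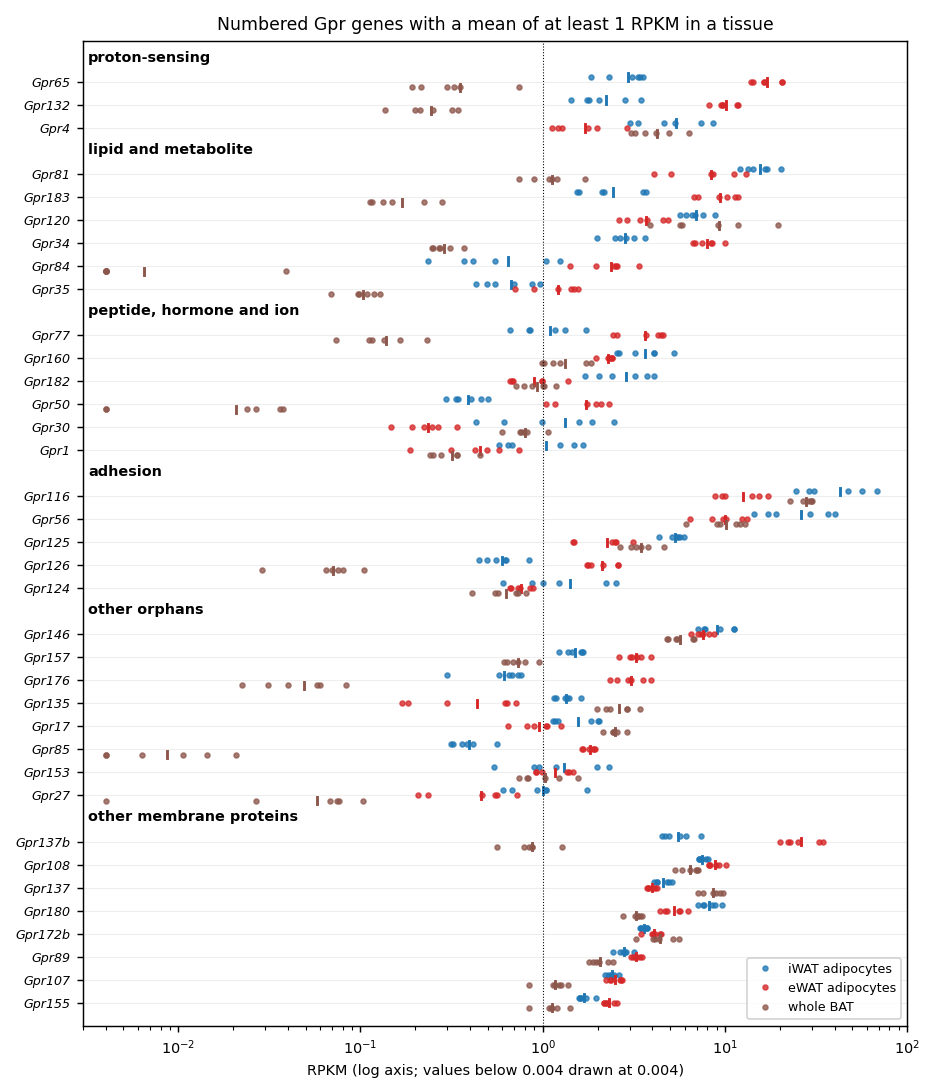
RPKM on a log axis of 36 numbered Gpr genes with a mean of at least 1 RPKM (dotted line) in a tissue, grouped by what the product is known for. Points are samples (6 per tissue), short bars are means, and the proton-sensing genes Gpr65 and Gpr132 have eWAT above iWAT and iWAT above BAT in every sample.

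Between the white depots, 51 of the 97 genes had a mean of at least 10 reads and were tested. Of these, 44 were called, 22 higher in iWAT and 22 higher in eWAT, and the samples of the 2 depots did not overlap for 28. Over all genes tested, 70.5% were called, 34.9% higher in iWAT and 35.6% higher in eWAT, and 46.4% did not overlap. A change of at least 2-fold was called for 28 members, 12 higher in iWAT and 16 higher in eWAT, against 25.4% of all genes. The median log2 fold change of iWAT over eWAT was 0.14 over the members tested and 0.00 over all genes. Among the 90 genes outside the study's list, 45 were tested, 20 were higher in iWAT and 18 higher in eWAT.

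Against BAT the split of the calls depended on the scaling. With TMM, 34 of 50 genes tested differed between iWAT and BAT, 25 higher in iWAT and 9 higher in BAT, where 75.9% of all genes were called, 38.6% higher in iWAT and 37.3% higher in BAT. Between eWAT and BAT 37 of 47 differed, 21 higher in eWAT and 16 higher in BAT, where 83.3% of all genes were called, 41.2% higher in eWAT and 42.1% higher in BAT. By at least 2-fold, 23 members differed between iWAT and BAT (36.2% of all genes) and 28 between eWAT and BAT (48.5% of all genes). Without scaling beyond the library total, the splits were 39 to 4 and 30 to 10, and the median of all genes moved to 0.81 and 0.80 on the log2 scale. On log2 RPKM with limma they were 34 to 5 and 27 to 10, with medians of all genes of 0.59 and 0.52. The samples did not overlap for 25 members between iWAT and BAT (57.5% of all genes) and for 30 between eWAT and BAT (67.5%). The values against BAT given next are those with TMM, which sets the typical gene near 0.

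Of the 46 members tested in all 3 comparisons, 25 were called in each, beside 46.7% of all genes tested in all 3. Higher in eWAT than in both other tissues were 18 of the 47 members tested in both comparisons (28.7% of all genes), among them Gpr31c, Gpr34, Gpr35, Gpr44, Gpr50, Gpr65, Gpr77, Gpr84, Gpr85, Gpr126, Gpr132, Gpr133, Gpr137b, Gpr155, Gpr157, Gpr176 and Gpr183. Against BAT, Gpr31c, Gpr84 and Gpr85 passed the read filter only through their eWAT reads, and Gpr31c did so against iWAT too. Higher in iWAT than in both were 10 of 50 members (11.8% of all genes), among them Gpr1, Gpr27, Gpr56, Gpr63, Gpr81, Gpr160, Gpr173, Gpr180 and Gpr182. Higher in BAT than in both were 7 of 46 members (32.6% of all genes): Gpr17, Gpr19, Gpr64, Gpr120, Gpr135, Gpr137 and Gpr172b. Without scaling all 18 of the eWAT genes and all 10 of the iWAT genes were called in the same way, and with limma 17 and 9 were (not Gpr31c and Gpr173). Both sets also grew. The eWAT set became 20 genes without scaling and 19 with limma, each time with Gpr89 and Gpr108. The iWAT set became 15 without scaling, with Gpr19, Gpr30, Gpr116, Gpr124 and Gpr125, and 12 with limma, with Gpr116, Gpr124 and Gpr125. Of the 7 genes higher in BAT, 3 (Gpr17, Gpr135 and Gpr137) kept both calls under both settings and Gpr19, Gpr64, Gpr120 and Gpr172b did not. Gpr19 turned from lower in iWAT than in BAT with TMM (-0.36, adjusted p = 0.0237) to higher without scaling (0.42, adjusted p = 0.0251), and Gpr64 turned in sign without a call (-0.54 and 0.26). The proton sensors Gpr65 and Gpr132 were in the eWAT set, the lactate receptor Gpr81 was in the iWAT set, and the fatty acid receptor Gpr120 was in the BAT set with TMM only.

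**Figure D3:**
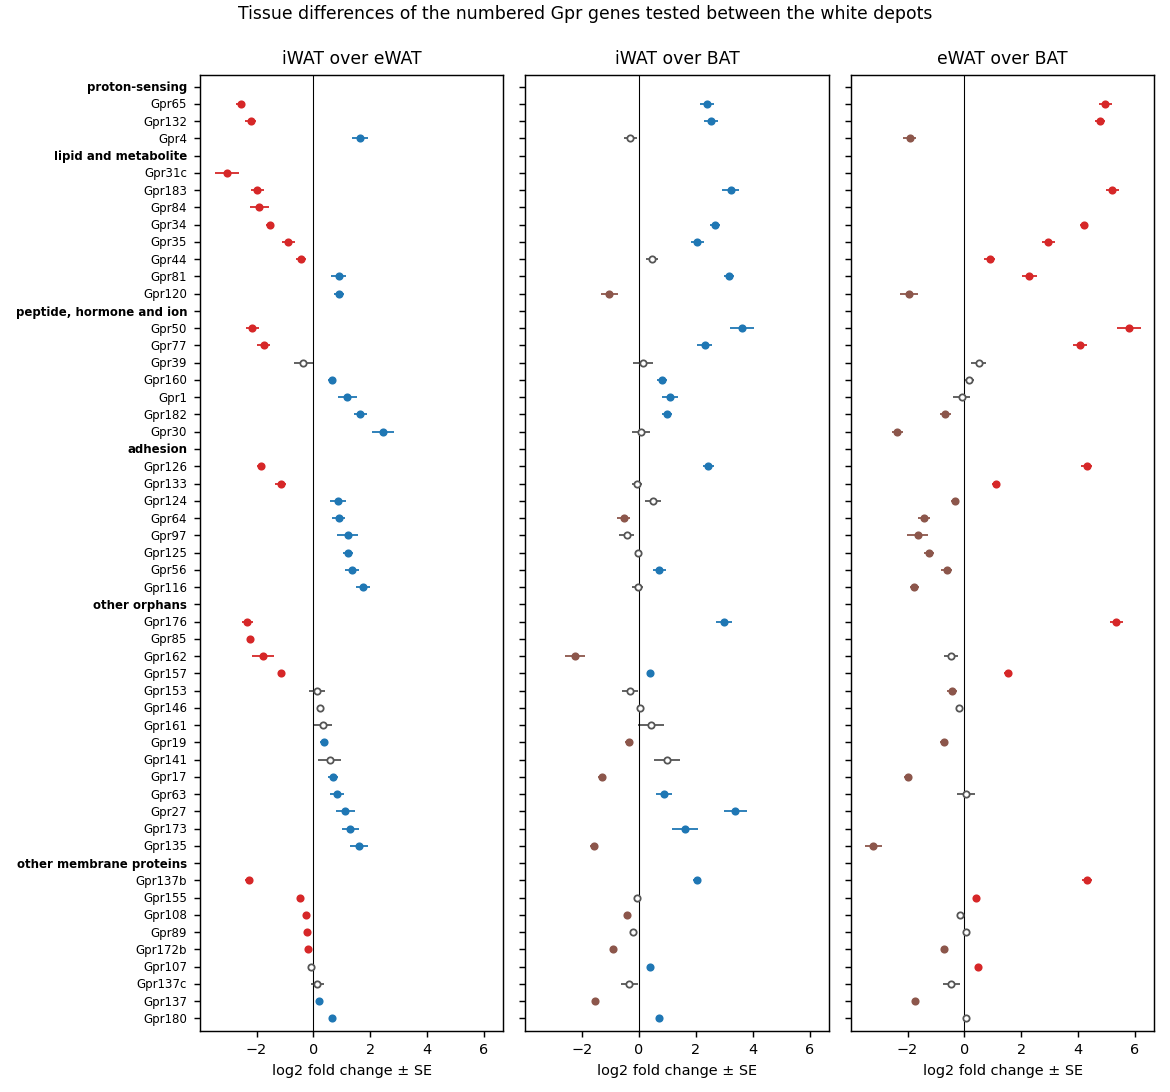
Log2 fold change ± SE of 49 numbered Gpr genes tested between the white depots, from edgeR with TMM scaling, for iWAT over eWAT (left), iWAT over BAT (middle) and eWAT over BAT (right). Filled points were called, in blue higher in iWAT, in red higher in eWAT and in brown higher in BAT, and open points were not called. Gpr31c, Gpr84 and Gpr85, whose BAT samples hold 3 reads or fewer each, and genes not tested are left out of the BAT panels.

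Sequence before the start of these genes was searched for 4 short motifs on both strands, in windows of 250 bases upstream of each row's 5′ end. The motifs were AGGAAGT, a core bound by ETS factors, which include regulators of myeloid cells, TGACGTCA, the cyclic AMP response element, CACGTG, an E-box, and AGGTCA, the half-site of nuclear receptors. No motif holds another of the 4. AGGAAGT was found in 7.33% of 30971 windows and in 9 of 97 members (9.28%), among them 4 of the 18 genes higher in eWAT than in both other tissues (Gpr31c, Gpr77, Gpr84 and Gpr132). TGACGTCA was found in 1.6% of windows and 1 member, CACGTG in 5.93% and 2 members, and AGGTCA in 13.1% and 13 members (13.4%). The windows of Gpr77, Gpr84 and Gpr132 are shown because these receptors of leukocytes were in the eWAT set, and that of Gpr120 because it was in the BAT set with TMM. Each is from NCBIM37, 5′ to 3′ in the direction of the gene, with AGGAAGT or its reverse complement in capitals. They are chr7:16829504-16829753 (- strand) for Gpr77, chr15:103140870-103141119 (- strand) for Gpr84, chr12:114099155-114099404 (- strand) for Gpr132 and chr19:38171319-38171568 (+ strand) for Gpr120.
Gpr77: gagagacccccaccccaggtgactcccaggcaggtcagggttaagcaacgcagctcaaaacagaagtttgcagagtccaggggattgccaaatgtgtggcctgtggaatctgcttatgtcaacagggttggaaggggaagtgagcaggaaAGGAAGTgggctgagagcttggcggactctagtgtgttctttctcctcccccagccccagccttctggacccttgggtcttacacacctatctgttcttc
Gpr84: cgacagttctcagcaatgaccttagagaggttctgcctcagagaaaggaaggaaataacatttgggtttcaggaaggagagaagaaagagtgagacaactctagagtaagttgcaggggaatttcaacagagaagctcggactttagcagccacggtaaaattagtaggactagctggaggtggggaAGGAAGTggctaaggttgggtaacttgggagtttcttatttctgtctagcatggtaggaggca
Gpr132: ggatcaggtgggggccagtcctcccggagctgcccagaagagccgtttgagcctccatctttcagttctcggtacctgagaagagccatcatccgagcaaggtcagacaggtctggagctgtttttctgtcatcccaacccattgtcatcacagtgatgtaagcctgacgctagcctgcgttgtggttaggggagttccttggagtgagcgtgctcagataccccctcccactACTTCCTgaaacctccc
Gpr120: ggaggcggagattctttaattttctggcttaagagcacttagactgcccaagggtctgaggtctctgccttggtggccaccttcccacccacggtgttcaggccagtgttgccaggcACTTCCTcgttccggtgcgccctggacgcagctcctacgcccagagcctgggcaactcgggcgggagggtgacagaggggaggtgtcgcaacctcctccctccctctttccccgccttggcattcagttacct
The first base of the match lay 100 bases before the start in Gpr77, 63 in Gpr84, 17 in Gpr132 and 133 in Gpr120. The letters describe these windows only, and binding was not measured.

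The proton-sensing receptors Gpr65, Gpr132 and Gpr4 couple acid outside the cell to G proteins, and Gpr132 also responds to oxidised fatty acids. All 3 differed between the white depots by at least 2-fold, Gpr65 and Gpr132 higher in eWAT and Gpr4 higher in iWAT. Gpr65 (chr12:99506845-99514842, + strand) measured 1.84, 3.21 and 3.56 RPKM (lowest, median and highest sample) in iWAT, 14, 16.3 and 20.6 in eWAT, and 0.191, 0.311 and 0.741 in BAT. The 3 tissues did not overlap, and eWAT was 5.92-fold above iWAT (log2 fold change of iWAT over eWAT -2.57, SE 0.16, adjusted p = 1.76e-07) and 30.9-fold above BAT. Gpr132 (chr12:114089084-114099154, - strand) measured 1.42, 1.91 and 3.45 RPKM in iWAT, 8.14, 9.75 and 11.9 in eWAT, and 0.137, 0.231 and 0.343 in BAT. Its order was the same, with eWAT 4.64-fold above iWAT (-2.21, SE 0.18, adjusted p = 5.78e-07) and 27.1-fold above BAT.

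Gpr4, the member of this family known from endothelium (chr7:19797887-19809525, + strand), was lowest in eWAT. It measured 3.0, 4.97 and 8.64 RPKM in iWAT, 1.12, 1.52 and 2.89 in eWAT, and 3.05, 3.92 and 6.32 in BAT. The eWAT samples lay below all others, with iWAT over eWAT at a log2 fold change of 1.63 (SE 0.29, adjusted p = 0.000234) and eWAT over BAT at -1.93 (SE 0.23, adjusted p = 1.29e-06). Between iWAT and BAT it was not called (-0.30, 95% interval -0.74 to 0.15, adjusted p = 0.243). Without iWAT sample 5 that difference was called, at a log2 fold change of -0.47.

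**Figure D4:**
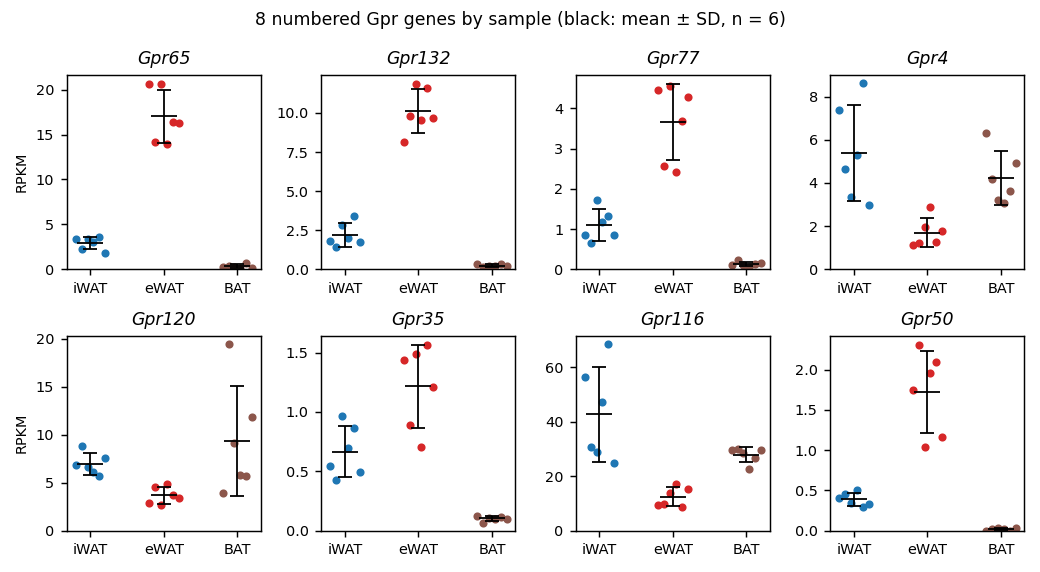
RPKM of 8 numbered Gpr genes in each sample (coloured points), with the mean and SD of 6 samples in black and a scale from 0 in each panel. Gpr65, Gpr132, Gpr77, Gpr35 and Gpr50 have their highest means in eWAT and their lowest in BAT, Gpr4 and Gpr116 have their lowest means in eWAT, and Gpr120 varies from 3.89 to 19.4 RPKM within BAT.

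Receptors for lipids and small metabolites, 13 in all, were tested for 8 between the white depots. All 8 were called (70.5% of all genes were), 6 higher in eWAT and 2 higher in iWAT. Among the 6, Gpr31c had 1 to 6 reads per sample in iWAT and passed the read filter only through eWAT. Against BAT, 5 of 7 were higher in iWAT and 1 lower (75.9% of all genes called). In eWAT 7 of 8 were higher than in BAT and 1 lower (83.3% of all genes called). Where tested against BAT, Gpr31c and Gpr84 passed the read filter only through their white adipocyte reads. The 1 lower in both white depots was Gpr120 (chr19:38171569-38188753, + strand). It measured 5.68, 6.72 and 8.86 RPKM in iWAT, 2.63, 3.57 and 4.90 in eWAT, and 3.89, 7.48 and 19.4 in BAT. All iWAT samples were above all eWAT samples (0.90, SE 0.17, adjusted p = 0.000379), while the BAT samples spread widely in RPKM and overlapped both. With TMM BAT was above iWAT (-1.04, SE 0.30, adjusted p = 0.00506), and this call was lost without scaling (-0.27) and with limma (-0.22).

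Gpr35, a receptor for kynurenic acid, averaged 0.667 ± 0.215 RPKM in iWAT, 1.22 ± 0.350 in eWAT and 0.103 ± 0.0207 in BAT. It was higher in eWAT than in iWAT (-0.89, SE 0.23, adjusted p = 0.00382), though samples of the 2 depots overlapped. Gpr31c, linked to the lipid 12-HETE, had 8 to 33 reads per sample in eWAT, 1 to 6 in iWAT and 0 in BAT. Against a floor of 3 reads per library, eWAT was thus at least 2.65-fold higher than BAT. The row of Gpr31c is uncertain. Its gene ID is now named Gpr31b, and the GENCODE vM1 gene named Gpr31c covers 0.0% of that row. Of the 5 list members in this class, Gpr183, Gpr34, Gpr84 and Gpr44 were higher in eWAT than in iWAT and Gpr81 higher in iWAT, and the call of Gpr44 was lost on leaving out any of 5 single samples. Gpr84, a receptor for medium-chain fatty acids, had at most 2 reads in any BAT sample, and eWAT was at least 15.9-fold and iWAT at least 4.16-fold higher than BAT against the same floor. With genes at the floor set to their bound, the median log2 difference of this class was 2.06 for iWAT over BAT and 2.62 for eWAT over BAT, beside fitted medians of 2.66 and 3.57. The members not tested were low. Gpr18 had 1 to 16 reads in a sample, Gpr174 1 to 15, and Gpr55 0 to 5.

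Receptors linked to peptides, hormones or ions (16 genes) were tested for 7. Of these, 4 were higher in iWAT than in eWAT and 2 higher in eWAT (85.7% called, beside 70.5% of all genes). Gpr77, the second receptor of complement C5a, measured 0.658, 1.01 and 1.73 RPKM in iWAT, 2.42, 3.98 and 4.55 in eWAT, and 0.0735, 0.125 and 0.233 in BAT. The 3 tissues did not overlap, and the log2 fold change of iWAT over eWAT was -1.76 (SE 0.23, adjusted p = 2.39e-05). Gpr50, related to the melatonin receptors and known from the brain (chrX:68916572-68922432, + strand), measured 0.295, 0.374 and 0.504 RPKM in iWAT, 1.04, 1.85 and 2.30 in eWAT, and at most 0.0377 in BAT, which is 4 reads. Its eWAT samples were all above its iWAT samples, by 4.45-fold (-2.15, SE 0.22, adjusted p = 3.03e-06).

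The members of this class higher in iWAT were Gpr1, Gpr30, Gpr160 and Gpr182. Gpr182, an atypical receptor of endothelium, averaged 2.86 ± 0.957 RPKM in iWAT, 0.898 ± 0.281 in eWAT and 0.929 ± 0.170 in BAT, and its iWAT samples lay above all eWAT samples (1.65, SE 0.24, adjusted p = 4.54e-05). Gpr1, a receptor for chemerin, averaged 1.05 ± 0.473, 0.455 ± 0.194 and 0.316 ± 0.0793 RPKM in iWAT, eWAT and BAT. It was called higher in iWAT than in both (adjusted p = 0.00646 and 0.00308 by edgeR) and not called between eWAT and BAT (-0.10, 95% interval -0.69 to 0.49). Gpr30, the G protein-coupled estrogen receptor, averaged 1.32 ± 0.783 RPKM in iWAT, 0.235 ± 0.0656 in eWAT and 0.796 ± 0.154 in BAT, and eWAT was below both others without overlap. Without scaling Gpr30 was also called higher in iWAT than in BAT (0.88, against 0.07 with TMM and 0.47 with limma, neither called). Gpr160 averaged 3.63 ± 1.04, 2.29 ± 0.172 and 1.33 ± 0.369 RPKM. Gpr39, the zinc receptor, was tested and not called in any comparison with TMM. Without scaling it was called higher than in BAT in both iWAT (0.92) and eWAT (1.31), and with limma in eWAT alone (0.70).

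Of 18 adhesion GPCRs, 8 were tested. All 8 differed between the white depots (70.5% of all genes did), 6 higher in iWAT and 2 higher in eWAT. Between eWAT and BAT all 8 differed as well (83.3% of all genes did), 6 higher in BAT and 2 in eWAT. This split was 4 and 3 without scaling and 4 and 2 with limma. Gpr116 measured 24.7, 38.9 and 68.5 RPKM in iWAT, 8.86, 12.0 and 17.3 in eWAT, and 22.8, 29.0 and 30.0 in BAT. Its eWAT samples lay below all others (iWAT over eWAT 1.74, SE 0.25, adjusted p = 5.62e-05; eWAT over BAT -1.77, SE 0.15, adjusted p = 4.09e-08). Between iWAT and BAT it was not called with TMM (-0.04, 95% interval -0.42 to 0.34), but it was called higher in iWAT without scaling (0.77, adjusted p = 0.0033 by edgeR) and with limma (0.52, adjusted p = 0.0363). Gpr56 measured 14.4, 24.2 and 40.3 RPKM in iWAT, 6.45, 9.91 and 13.3 in eWAT, and 6.12, 10.4 and 12.8 in BAT. The iWAT samples were above all the others in RPKM, with iWAT over eWAT at 1.35 (SE 0.25, adjusted p = 0.00036), and eWAT and BAT overlapped. With TMM BAT was called above eWAT (-0.63, SE 0.18), whereas without scaling the sign turned (0.20).

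Gpr125 averaged 5.34 ± 0.551 RPKM in iWAT, 2.25 ± 0.654 in eWAT and 3.48 ± 0.687 in BAT, and eWAT was called below both others. Between iWAT and BAT there was no call with TMM (-0.02, 95% interval -0.21 to 0.18), but iWAT was called higher without scaling (0.77, adjusted p = 3.29e-05 by edgeR) and with limma (0.62, adjusted p = 0.000234). Gpr124, a co-receptor for Wnt7 in brain vessels, averaged 1.41 ± 0.780, 0.758 ± 0.0915 and 0.630 ± 0.147 RPKM and was higher in iWAT than in eWAT (0.86, SE 0.28, adjusted p = 0.0157). Against BAT its eWAT value of -0.35 was lost on leaving out any of 3 single samples (eWAT 1, eWAT 5 or BAT 18). Over BAT its iWAT value was 0.50 with TMM (adjusted p = 0.114 by edgeR) and was called at 1.31 without scaling and 0.92 with limma. The 2 adhesion GPCRs higher in eWAT were Gpr126 and Gpr133. Gpr126, which Schwann cells need for myelination, averaged 0.598 ± 0.138 RPKM in iWAT, 2.12 ± 0.391 in eWAT and 0.0706 ± 0.0248 in BAT, and the 3 tissues did not overlap (iWAT over eWAT -1.84, SE 0.15, adjusted p = 4.58e-07). Schwann cell markers had the reverse order, with their lowest sums in eWAT. Gpr97, known from granulocytes, and Gpr64 were low, at 0.0808 to 0.682 RPKM in every tissue mean, and higher in iWAT than in eWAT.

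Of 34 other orphans, 15 were tested between the white depots, 7 being higher in iWAT and 4 in eWAT. The share called was 73.3%, close to the 70.5% of all genes. The 4 higher in eWAT were Gpr85, Gpr157, Gpr162 and Gpr176. Gpr176, an orphan of the circadian clock of the brain (chr2:118102834-118199155, - strand), measured 0.30, 0.666 and 0.757 RPKM in iWAT, 2.34, 3.0 and 3.91 in eWAT, and 0.0223, 0.0487 and 0.0837 in BAT. Its eWAT samples were 5.02-fold above iWAT (-2.33, SE 0.19, adjusted p = 4.87e-07) and no tissues overlapped. Gpr85, known from the brain (chr6:13784457-13789942, - strand), measured 0.314, 0.372 and 0.564 RPKM in iWAT and 1.64, 1.85 and 1.95 in eWAT (-2.22, SE 0.13, adjusted p = 1.76e-07). In BAT it had at most 3 reads in a sample, and eWAT was at least 31.7-fold and iWAT at least 6.81-fold higher against the floor of 3 reads per library. Gpr157 averaged 1.5 ± 0.174, 3.23 ± 0.446 and 0.736 ± 0.126 RPKM.

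Gpr135, a gene of 1 exon (chr12:73168963-73172112, - strand), was lowest in eWAT and highest in BAT. It measured 1.16, 1.35 and 1.63 RPKM in iWAT, 0.170, 0.461 and 0.713 in eWAT, and 1.97, 2.62 and 3.42 in BAT. No tissues overlapped, and BAT was 9.24-fold above eWAT and 3.03-fold above iWAT. Gpr27 averaged 1.01 ± 0.407 RPKM in iWAT, 0.457 ± 0.202 in eWAT and 0.0581 ± 0.0376 in BAT, where it had at most 4 reads in a sample.

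Gpr146, an orphan linked to plasma cholesterol, averaged 9.04 ± 1.82 RPKM in iWAT, 7.58 ± 0.749 in eWAT and 5.65 ± 0.853 in BAT, and every iWAT sample (at least 7.13 RPKM) lay above every BAT sample (at most 6.76 RPKM). With TMM it was called in no comparison, with log2 fold changes of 0.23 (95% interval 0.02 to 0.44, adjusted p = 0.0694), 0.03 (-0.19 to 0.26) and -0.19 (-0.38 to -0.001) for iWAT over eWAT, iWAT over BAT and eWAT over BAT. Without scaling it was higher than in BAT in both iWAT (0.84) and eWAT (0.64), and both were called with limma too (0.66 and 0.42). Leaving out iWAT 3 or iWAT 16 gave a call between the white depots (0.27 and 0.28), and leaving out BAT 17 or BAT 18 gave one between eWAT and BAT (-0.22 and -0.24). Gpr153 averaged 1.31 ± 0.685, 1.17 ± 0.257 and 1.03 ± 0.311 RPKM, and its one call, BAT above eWAT (-0.43, adjusted p = 0.04 by edgeR), was lost on leaving out any of 6 single samples and turned in sign without scaling. Gpr17 averaged 1.57 ± 0.437, 0.954 ± 0.213 and 2.49 ± 0.244 RPKM. Gpr161, which restrains Hedgehog signalling in cilia, averaged 0.142 ± 0.0823, 0.111 ± 0.0333 and 0.0658 ± 0.0436 RPKM. It was not tested between eWAT and BAT, and with TMM it was not called in the other comparisons. Without scaling and with limma it was called higher in iWAT than in BAT (1.20 and 0.53). Of the constitutively active receptors, Gpr3 had at most 9 reads in a sample and Gpr6 and Gpr12 had none, so that none of the 3 was tested.

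The 9 genes grouped as other membrane proteins, most of them known from inner membranes, were all tested, and 8 of them had at least 1 RPKM in some tissue. Between the white depots 7 were called (77.8%, beside 70.5% of all genes), 5 higher in eWAT and 2 in iWAT. By 2-fold or more 1 alone was called (25.4% of all genes were). That was Gpr137b, at 4.50, 5.27 and 7.35 RPKM in iWAT, 20.2, 24.0 and 34.6 in eWAT, and 0.562, 0.854 and 1.27 in BAT (iWAT over eWAT -2.27, SE 0.15, adjusted p = 2.11e-07). Its near copy followed the same order, and reads of both cannot be separated here. Gpr137, another lysosomal protein, averaged 4.56 ± 0.438, 3.96 ± 0.201 and 8.55 ± 1.03 RPKM, with every BAT sample above every white sample (-1.54 against iWAT and -1.72 against eWAT, SE 0.09 and 0.07). Its small difference between the white depots (0.19) was lost on leaving out any of 8 single samples. Gpr180 averaged 8.22 ± 0.922, 5.23 ± 0.717 and 3.25 ± 0.253 RPKM, and Gpr108, a Golgi protein, 7.52 ± 0.365, 8.84 ± 0.777 and 6.44 ± 0.742. The riboflavin transporter Gpr172b (now Slc52a2) averaged 3.59 ± 0.155, 4.07 ± 0.355 and 4.42 ± 0.848 RPKM. Gpr155, a cholesterol sensor of the lysosome, averaged 1.69 ± 0.141, 2.30 ± 0.160 and 1.13 ± 0.185, Gpr89 2.79 ± 0.237, 3.26 ± 0.177 and 2.06 ± 0.251, and Gpr107 2.39 ± 0.147, 2.49 ± 0.211 and 1.17 ± 0.180 RPKM.

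Receptors known from leukocytes and those known from endothelium had different orders of tissues. Of 18 leukocyte-linked members, 10 were tested between the white depots, where 70.5% of all genes were called. Higher in eWAT were 8, and 1, Gpr97, was higher in iWAT. Of these 18, 7 of 10 were higher in iWAT than in BAT (75.9% of all genes called). In eWAT 8 of 9 were higher than in BAT and 1 lower (83.3% of all genes called). Their medians were -1.64 for iWAT over eWAT, 2.35 for iWAT over BAT and 4.19 for eWAT over BAT. The last 2 became 2.19 and 4.07 with Gpr84, which passed the read filter against BAT only through white adipocytes, at its bound. The macrophage marker sums had the same order of tissues, eWAT, iWAT and BAT, and their part in these values was not tested. All 4 endothelium-linked members (Gpr4, Gpr116, Gpr124 and Gpr182) were higher in iWAT than in eWAT, with a median of 1.64. All 4 were also higher in BAT than in eWAT with TMM (median -1.22), against 2 higher in BAT and 1 lower without scaling and 2 higher with limma. Between iWAT and BAT 1 of the 4, Gpr182, was called with TMM, and 3 were without scaling and 3 with limma, all higher in iWAT. The endothelial marker sums were lowest in eWAT too, and their part was not tested.

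Genes that make, remove or serve as ligands or partners of these receptors were also tested. Of the 32 listed, 22 were tested between the white depots, 9 being higher in iWAT and 7 in eWAT (70.5% of all genes were called). Against BAT 11 of 21 were higher in iWAT and 7 lower (75.9% of all genes called). In eWAT 12 of 22 were higher than in BAT and 6 lower (83.3% of all genes called). Without scaling these became 13 and 3, and 16 and 5. Chemerin (Rarres2), a ligand of Gpr1, averaged 246 ± 34.1 RPKM in iWAT, 108 ± 45.9 in eWAT and 32.5 ± 5.88 in BAT, and iWAT was above eWAT (1.17, SE 0.26, adjusted p = 0.00147). Hpgds, which makes prostaglandin D2, the ligand of Gpr44, averaged 7.83 RPKM in iWAT, 40.6 in eWAT and 0.471 in BAT, while the other synthase of that lipid, Ptgds, averaged 0, 0.173 and 9.10 RPKM. Alox15, a lipoxygenase linked to Gpr31c, averaged 0.00949 RPKM in iWAT and 0.285 in eWAT. Alox12, which also makes 12-HETE, went the other way, at 0.338 RPKM in iWAT, 0.116 in eWAT and 0.332 in BAT (iWAT over eWAT 1.54, SE 0.42, adjusted p = 0.00517). Abhd12, which removes lysophosphatidylserine, a ligand of Gpr34, averaged 39.0, 90.9 and 7.72 RPKM. Abhd16a, which makes that lipid in cells, averaged 15.8, 10.9 and 7.78 RPKM and was called higher in iWAT than in eWAT (0.51, SE 0.10). Pla1a, which releases the same lipid, was not called between the white depots. Col4a1, a collagen chain that binds Gpr126, averaged 197, 85.9 and 41.0 RPKM, the reverse order of Gpr126 in the white depots. Ldha, which makes lactate, averaged 145, 109 and 172 RPKM, and the aminotransferases Ccbl1 and Ccbl2, which can make kynurenic acid, were called lowest in eWAT and highest in BAT. Another such enzyme, Aadat, had no read in any library. Complement C5 (Hc), Wnt7a, Wnt7b and Pcsk1n averaged at most 0.0417 RPKM in any tissue.

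The rows of 44 members overlap the row of another symbol, 40 of them outside the study's list, and 15 share exon bases with another symbol in GENCODE vM1. Reads of overlapping genes cannot be told apart where the counting used no strand, and its strand setting is not given in the sources used here. The exon overlaps include 1333 bases of Gpr89 with Pdzk1, 1031 of Gpr44 with Ccdc86, 517 of Gpr137 with Bad, 678 of Gpr146 with D830046C22Rik and 188 of Gpr17 with Lims2. Lims2 averaged 22.4, 11.2 and 20.5 RPKM, above Gpr17 in each tissue. Gpr30 and Gpr146 lie wholly within 3110082I17Rik, Gpr34 and Gpr82 within Cask, and Gpr18 within Ubac2, each on the opposite strand and with no shared exon base. For the 53 members without any overlap, 24 were tested between the white depots, 10 being higher in iWAT and 12 in eWAT (91.7% called, beside 70.5% of all genes).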

How the data were processed

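Total RNA went into NEBNext Ultra libraries, and the authors aligned reads to the mouse genome build mm9, which is NCBIM37. The submitters' processing notes name cutadapt 1.16 and HISAT2 2.1.0. The counting program, its annotation and its strand setting are not given in the sources used here. Each deposited file holds 53445 rows with a read count and an RPKM by the authors, which divides the count by transcript length and library total and carries no other normalization. RPKM was used for levels and counts for tests. Neither the files' other columns nor any comparison made by the authors was used.

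Samples were grouped by tissue from their titles. Rows with an Entrez gene ID were kept (32314), and 1 row was taken per symbol, that of the largest RPKM averaged over all 18 libraries. The 97 members had 99 such rows. Each pair of tissues was fitted on its own 12 samples with edgeR 4.0.16 (R 4.3.3), glmQLFit and glmQLFTest, two-sided, with TMM scaling, for genes with a mean of at least 10 reads. SE is the absolute log2 fold change over the square root of F, and fold bounds use a floor of 3 reads per library. The fit was tested on simulated data with known changes. Libraries of a tissue differed well beyond counting error (chi-square divided by its degrees of freedom at least 16.2), so none was counted as a repeat. Alternatives were DESeq2 1.42.0, limma 3.58.1 on log2(RPKM + 0.1) for genes with a mean of at least 0.1 RPKM, no scaling, no filter, a fit of all 18 samples, lane as a covariate, the replicate block, summed rows, other RPKM cutoffs and each sample left out in turn.

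Named genes were those with at least 1 RPKM in a tissue, the 5 largest called changes per comparison and direction, the proton-sensing, constitutively active and lipid or metabolite receptors, the study's 7 list members, genes of at most 3 reads, overlapping genes, and the ligand-side and marker lists, though the values of some are not reported here. Members, classes and lists were chosen with earlier results of these data known, and the motifs after levels were seen, when 3 other spellings were also looked at. All 97 members matched RefSeq by gene ID, and the symbols of 95 were found in GENCODE vM1 (NCBIM37). For 81 members the GENCODE gene covered at least 90% of the row. The lowest shares were 0.0% for Gpr31c, 2.8% for Gpr45 and 14.1% for Gpr63.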

Additional observations from a re-analysis of the deposited data

Results flagged for a closer look

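In 140 groups of 6 samples over 50 members with reads, 9 held a sample whose gap to the nearest other sample took up an unusually large part of the range (Dixon's criterion), where chance gives about 7.0. Of the 9, 5 rest on at most 9 reads, and 6 are described here.

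Gpr65 stood at 0.741 RPKM in BAT sample 17 (54 reads), beside 0.191 to 0.353 in the other BAT samples. Gpr160 stood at 1.95 RPKM in eWAT sample 2 (279 reads), beside 2.28 to 2.41. Gpr174 stood at 0.092 RPKM in iWAT sample 5 (15 reads), beside 0.0119 to 0.0339. The same sample held 0.047 RPKM of Gpr31c (6 reads), beside 0.00758 to 0.0173, and 0.0649 RPKM of Gpr55 (5 reads), beside 0 to 0.0126. BAT sample 1 held 0.0391 RPKM of Gpr84 (2 reads), where the other BAT samples had none.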

How the results depend on the processing

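Requiring a change of at least 2-fold left 28 calls of members between iWAT and eWAT, and left 8 ligand-side genes between iWAT and eWAT and 10 between iWAT and BAT. At a cutoff of 0.1 RPKM, 49, 49 and 39 members were counted in iWAT, eWAT and BAT. Leaving out each sample in turn gave 41 to 46, 33 to 35 and 34 to 40 calls of members in the order iWAT against eWAT, iWAT against BAT and eWAT against BAT. DESeq2 gave 45, 34 and 36, and the fit of all 18 samples 44, 36 and 36. Without the filter on low counts 50, 40 and 50 were called, and lane as a covariate gave 42 between the white depots.

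Equal sample numbers did not pair the samples by their deviations from the group means. Correlations of same-numbered samples ran from -0.257 to 0.390, -0.147 to 0.102 and -0.0385 to 0.0538, and 1 of 6, 1 of 4 and 2 of 4 samples correlated best with their own number. With the replicate block 40, 31 and 40 members were called (ligand-side genes 16, 18 and 18). Without the block on the same samples, an alternative chosen after seeing the data, the counts were 44, 31 and 40.

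Among the 121 named member results, leaving out 1 sample at a time lost a call 26 times, gained one 15 times and reversed none. The losses were in Gpr44 and Gpr172b (5 and 4 single samples) and Gpr137 between the white depots, and in Gpr124 and Gpr153 between eWAT and BAT. Under the other alternatives 22 calls were lost, 21 were gained and 9 turned in sign, with or without a call in the new direction. The ones that turned were all against BAT. Without scaling, Gpr108 for iWAT over BAT became 0.38, and for eWAT over BAT Gpr124 became 0.47, Gpr153 0.39, Gpr56 0.20, Gpr182 0.16 and Gpr172b 0.10. Gpr19, outside the named results, became 0.42 for iWAT over BAT. With limma, Gpr108 became 0.23, Gpr124 0.25 and Gpr153 0.19. Of the named results, those of Gpr108 under both settings and of Gpr124 without scaling were called in the new direction. The other named results that turned were not called. Both settings leave in the shift of the median of all genes that TMM removes. Depth limits the 46 members that no comparison tested.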
